A study of Mus musculus with 16 samples.

Results

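Rapgef5, Atp6v0d2, Neb, Gm7265, Adh1 and Neurl3 are 6 mouse genes with no settled role in regulatory T cells whose RNA level in these cells differed between mice carrying different Foxp3 reporter alleles. They were chosen by that measured difference, so it is described here and not tested. They are 6 of the 19531 genes that the array platform's annotation names by a single symbol, and 6 of 12798 that passed the filter on low values. Gene expression was measured on 16 Affymetrix Mouse Gene 1.0 ST arrays, with 2 arrays in each of 8 groups. RNA came from double-sorted spleen T cells, CD3+ and CD4+, which a MoFlo instrument had divided into GFP+ cells (Treg) and GFP- cells (Tconv). The mice were males aged 6 weeks. The mice carried either the Foxp3-Fusion-GFP allele (labelled Foxp3-GFP on the arrays and called fusion here) or the Foxp3-ires-GFP allele (called ires here), each on the C57BL/6 (B6) and on the diabetes-prone NOD background. In the fusion allele GFP is joined to the Foxp3 protein, and in the ires allele it is translated separately from the same transcript, so every group carried a reporter and no group had an unmodified Foxp3 gene. The comparison is between mouse lines that carry the one or the other allele. An effect of joining GFP to Foxp3 cannot be told apart here from other differences between these lines. The labels leave unsaid whether the 2 arrays of a group hold RNA of separate mice, and p-values here reflect only how far replicate arrays differ, which could be technical.

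Regulatory T cells are CD4+ T cells that restrain immune responses, and Foxp3 is the transcription factor that defines them. The 6 genes belong to unrelated families. Rapgef5 encodes a guanine nucleotide exchange factor, a protein that switches small GTPases of the Rap family to their active, GTP-bound form, and Rap1 is known in T cells for its control of integrin adhesion. Atp6v0d2 encodes a d subunit of the membrane sector of the vacuolar proton pump, which acidifies lysosomes, and this form of the subunit is best known from osteoclasts and macrophages. Neb encodes nebulin, a giant actin-binding protein that lies along the thin filaments of skeletal muscle. Adh1 encodes a class I alcohol dehydrogenase, a cytosolic enzyme that oxidizes ethanol and retinol, the latter being the first step towards retinoic acid. Neurl3 encodes a ubiquitin ligase of the Neuralized family, other members of which act on Notch ligands. Gm7265 is the name of a predicted gene model, which RefSeq ties to the ubiquitin ligase gene Nedd4.

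Each gene was read by 1 probe set, so nothing had to be chosen between probe sets. In the RefSeq gene table of assembly GRCm38.p6, Rapgef5 (probe set 10399148) spans chr12:117516526-117759737. Atp6v0d2 (10511779) spans chr4:19876838-19922566, and Neb (10482528) spans chr2:52136640-52338798. Adh1 (10496438) spans chr3:138277585-138290698, and Neurl3 (10353844) spans chr1:36264602-36274674. Gm7265 (10586967) has no entry of its own in that table, where the name is a synonym of Nedd4 at chr9:72662331-72749851. Nedd4 has another probe set on the array (10586933) under its own symbol. The genome build behind the array's annotation is not given in the sources used here, and which exons each probe set covers was not examined. Values are log2 intensities, replicate 1 before replicate 2. A level belongs to its own probe set, and levels of different genes are not set against each other.

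The labels were checked on marker genes. Foxp3 lay between 11.37 and 12.16 on the 8 Treg arrays and between 7.01 and 8.18 on the 8 Tconv arrays. All 9 Treg markers were higher in Treg in limma's test, and their summed linear intensity was 16385 to 21834 on Treg arrays and 1398 to 2208 on Tconv arrays. None of the 9 was called between the alleles in Treg, although the 4 fusion Treg arrays of Foxp3 (11.37 to 11.59) lay below the 4 ires Treg arrays (11.77 to 12.16), a difference of -0.43 ± 0.16 with an adjusted p of 0.396. Of 6 Tconv markers tested, 1 was called, Il7r, which was higher in fusion Treg by 0.44 ± 0.09 (adjusted p = 0.0416 in limma's test). The second NOD fusion Tconv array had the highest Tconv values of Foxp3 (8.18, against 7.12 on its replicate) and of Neb (6.53, against 5.81). Array medians ran from 86.7 to 99.0 in linear intensity.

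RefSeq promoter windows, from 250 bases before to 50 bases after an annotated start on GRCm38.p6, were on hand for Rapgef5, Adh1 and Neurl3, and for Nedd4. None were on hand for Atp6v0d2, Neb or Gm7265. Of the 3 genes shown, Adh1 and Neurl3 had lower values in fusion Treg and Rapgef5 had higher values. Forkhead transcription factors, the family of Foxp3, bind sites related to TGTTTNC. In the Adh1 window (chr3:138277335-138277634, + strand) capitals mark 2 matches to this motif, searched on both strands.

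Adh1: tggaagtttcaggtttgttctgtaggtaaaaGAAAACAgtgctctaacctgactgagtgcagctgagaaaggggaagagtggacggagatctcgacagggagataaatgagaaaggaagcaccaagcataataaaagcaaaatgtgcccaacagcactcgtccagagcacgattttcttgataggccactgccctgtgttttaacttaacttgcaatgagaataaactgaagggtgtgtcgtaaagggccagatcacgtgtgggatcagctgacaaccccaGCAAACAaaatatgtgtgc

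Neurl3: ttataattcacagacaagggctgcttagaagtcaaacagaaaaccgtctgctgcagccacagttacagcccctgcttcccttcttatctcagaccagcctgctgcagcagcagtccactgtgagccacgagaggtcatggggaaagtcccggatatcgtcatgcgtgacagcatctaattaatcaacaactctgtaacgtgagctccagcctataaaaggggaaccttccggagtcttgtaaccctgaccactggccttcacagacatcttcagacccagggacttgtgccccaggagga

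Rapgef5: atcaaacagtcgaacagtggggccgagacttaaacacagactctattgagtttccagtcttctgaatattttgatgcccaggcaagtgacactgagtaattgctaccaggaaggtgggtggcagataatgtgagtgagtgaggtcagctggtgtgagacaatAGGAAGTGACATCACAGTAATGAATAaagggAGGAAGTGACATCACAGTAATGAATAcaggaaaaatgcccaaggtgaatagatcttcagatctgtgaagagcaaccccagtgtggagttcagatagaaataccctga

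The forkhead matches of Adh1 begin at positions -219 and 31 relative to the start. Of 32851 promoter windows of the same length, 20.5% hold at least 1 match, so a match is common. The Neurl3 window (chr1:36273376-36273675, - strand) lies inside the span of the gene (chr1:36264602-36274674), and no window of another Neurl3 start was on hand. That window has no forkhead match. It also has no match to TGANTCA (AP-1, in 7.81% of windows) or TTCNNNGAA (STAT, in 8.30%), searched on both strands. Neither of the 2 annotated starts of Rapgef5 has a match to any of the 3 motifs. The window of its upstream start (chr12:117516276-117516575, + strand) holds a direct repeat, marked in capitals, of 26 bases in 2 copies with 5 bases between them. The copies begin at positions -88 and -57 relative to the start. A direct repeat at least that long occurs in 261 windows (0.794%), and it was looked for only after the sequence had been read. Of the 2 Nedd4 starts, the one at chr9:72693048-72693347 holds 1 AP-1 and 1 STAT match, and the other none. A match describes the letters only, and no binding data were used.

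Rapgef5, the Rap exchange factor, was higher in fusion than in ires Treg on both backgrounds. B6 fusion Treg arrays read 6.80 and 6.78, and B6 ires Treg arrays 6.07 and 6.03. NOD fusion Treg arrays read 7.88 and 7.68, and NOD ires Treg arrays 7.11 and 6.97. Within each background both fusion arrays lay above both ires arrays, but the B6 fusion arrays lay below the NOD ires arrays, so the alleles overlapped once backgrounds were pooled. The fusion minus ires difference was 0.74 ± 0.13 (SE from the fit, 2 arrays against 2) in B6 and 0.74 ± 0.13 in NOD, a 1.67-fold level in each. The 8 Tconv arrays ran from 4.90 to 5.37, with a median of 5.26, and none was above the filter on low values at 6.06.

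Atp6v0d2, the proton pump subunit, had the largest difference of the 6 in one background. B6 fusion Treg arrays read 8.08 and 8.45, against 6.67 and 6.98 in B6 ires Treg. NOD fusion Treg arrays read 6.73 and 6.77, against 6.04 and 6.16 in NOD ires Treg. The alleles did not overlap within a background, while B6 ires and NOD fusion arrays overlapped with each other. The difference was 1.43 ± 0.19 in B6 (2.70-fold) and 0.65 ± 0.19 in NOD (1.57-fold). The 8 Tconv arrays ran from 4.15 to 4.92, with a median of 4.75, and none passed the filter line.

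Neb, the muscle nebulin gene, was higher in fusion Treg by about the same amount on both backgrounds. B6 fusion Treg arrays read 8.83 and 8.48, against 7.84 and 7.31 in B6 ires Treg. NOD fusion Treg arrays read 8.36 and 8.40, against 7.37 and 7.46 in NOD ires Treg. All 4 fusion arrays lay above all 4 ires arrays. The difference was 1.08 ± 0.21 in B6 (2.11-fold) and 0.97 ± 0.21 in NOD (1.95-fold). Neb was the most variable of the 6 between replicates, with a within-group SD of 0.27. The 8 Tconv arrays ran from 5.79 to 6.53, and 3 of them were above the filter line.

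Gm7265 was higher in fusion Treg at values close to the filter line. B6 fusion Treg arrays read 6.26 and 6.34, against 5.52 and 5.24 in B6 ires Treg. NOD fusion Treg arrays read 6.11 and 6.03, against 5.28 and 5.48 in NOD ires Treg. All 4 fusion arrays lay above all 4 ires arrays, and the 8 Tconv arrays (5.15 to 5.60) spanned the range of the ires Treg arrays. The difference was 0.92 ± 0.12 in B6 (1.90-fold) and 0.69 ± 0.12 in NOD (1.62-fold). Only 3 of the 16 arrays exceeded 6.06, all of them fusion Treg, so Gm7265 was tested at all only because it was high in those groups.

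Adh1, the alcohol dehydrogenase, went the other way. B6 fusion Treg arrays read 5.81 and 6.12, against 6.50 and 6.44 in B6 ires Treg. NOD fusion Treg arrays read 6.99 and 7.38, against 8.17 and 8.10 in NOD ires Treg. Both fusion arrays lay below both ires arrays within each background, while NOD fusion arrays lay above the B6 ires arrays. The fusion minus ires difference was -0.50 ± 0.14 in B6 and -0.95 ± 0.14 in NOD, that is 1.42-fold and 1.93-fold lower in fusion. Tconv arrays were higher than Treg arrays of the same line, at 8.07 to 8.36 in B6 and 9.58 to 9.78 in NOD.

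Neurl3, the Neuralized-family ubiquitin ligase, was lower in fusion Treg and was the only 1 of the 6 that was above the filter line on all 16 arrays. B6 fusion Treg arrays read 7.89 and 8.12, against 8.61 and 8.55 in B6 ires Treg. NOD fusion Treg arrays read 7.84 and 7.91, against 8.47 and 8.34 in NOD ires Treg. All 4 fusion arrays lay below all 4 ires arrays. The difference was -0.57 ± 0.13 in B6 and -0.53 ± 0.13 in NOD, or 1.49-fold and 1.44-fold lower in fusion. Tconv arrays ran from 7.28 to 8.14, and fusion Treg arrays lay inside that range.

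**Figure D1:**
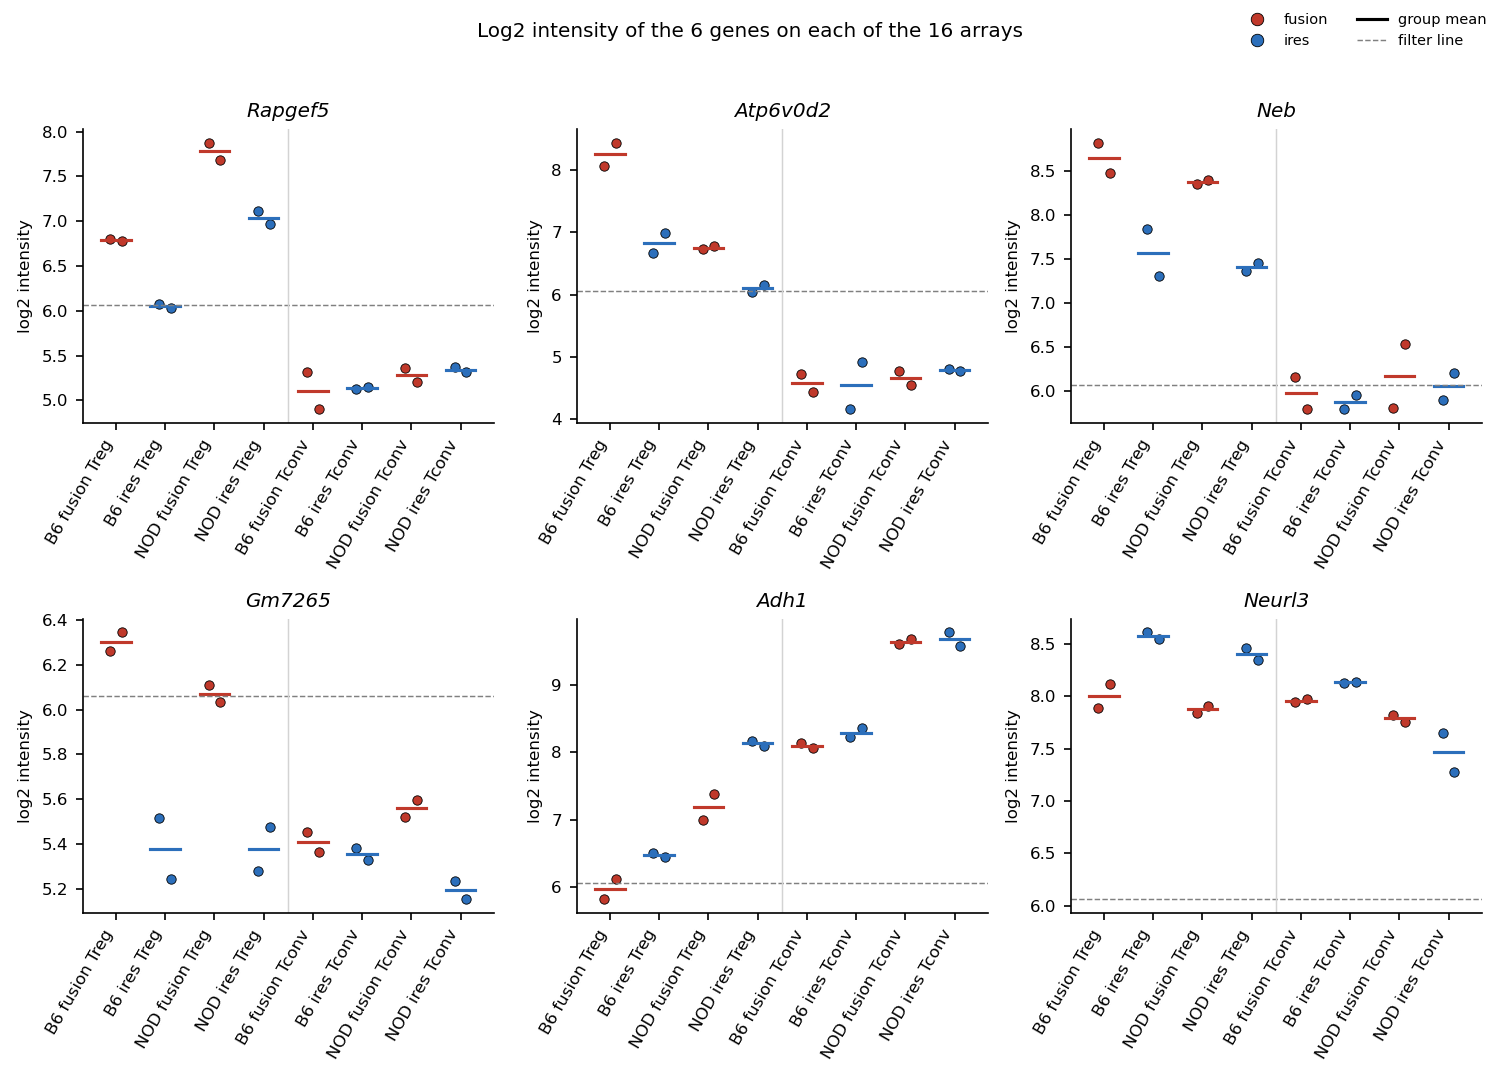
Log2 intensity of each gene (vertical axis) on the 16 arrays, in the 8 groups on the horizontal axis; points are single arrays (red fusion, blue ires), bars are group means and the dashed line is the filter at 6.06. Rapgef5, Atp6v0d2, Neb and Gm7265 have their highest group means in fusion Treg of one or both backgrounds, Adh1 has its lowest in B6 fusion Treg (5.81 and 6.12), and Neurl3 its highest in ires Treg.

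Read together, 4 of the 6 were higher and 2 lower in fusion Treg, in B6 and in NOD alike. Taking both backgrounds as one mean, the differences were 0.74 ± 0.09 for Rapgef5, 1.04 ± 0.14 for Atp6v0d2, 1.02 ± 0.15 for Neb, 0.81 ± 0.09 for Gm7265, -0.73 ± 0.10 for Adh1 and -0.55 ± 0.09 for Neurl3. The median over all 12798 genes was -0.0023. Across those genes 78 (0.609%) were called between the alleles in Treg at an adjusted p under 0.05, 51 higher and 27 lower in fusion, or 50 and 14 with each array centred on its median. Pooled fusion and ires Treg arrays failed to overlap for Neb, Neurl3 and Gm7265 among the 6, and for 2.15% of all genes. Within B6 Treg and within NOD Treg, 2 arrays against 2, the alleles did not overlap for any of the 6, but this held for 38.8% and 35% of all genes too. These counts follow from how the genes were chosen.

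The order of the 8 group means differed between the genes. It is a description and not a test, because gaps that set fusion Treg apart from ires Treg follow from how the genes were chosen. The half-width of the 95% interval of a difference between 2 groups was 0.28 for Rapgef5, 0.41 for Atp6v0d2, 0.44 for Neb, 0.25 for Gm7265, 0.29 for Adh1 and 0.27 for Neurl3, and neighbours in the order closer than this did not differ beyond their spread. Rapgef5 fell from NOD fusion Treg (7.78) to NOD ires Treg (7.04) and B6 fusion Treg (6.79), a pair closer than its half-width, then to B6 ires Treg (6.05) and the 4 Tconv groups, from 5.34 down to 5.11 with no gap beyond the spread. Atp6v0d2 was led by B6 fusion Treg (8.26), followed by B6 ires Treg (6.83) and NOD fusion Treg (6.75), which did not differ beyond their spread, then by NOD ires Treg (6.10) and the 4 Tconv groups. Neb formed 3 tiers, with both fusion Treg groups (8.65 and 8.38), both ires Treg groups (7.57 and 7.41) and the Tconv groups (6.17 down to 5.88). Gm7265 formed 2 tiers, both fusion Treg groups (6.30 and 6.07) and then all the others, from 5.56 to 5.19 with no gap beyond the spread between neighbours. Adh1 had both NOD Tconv groups on top (9.68 and 9.65). Next came B6 ires Tconv (8.29), NOD ires Treg (8.13) and B6 fusion Tconv (8.10), which were not separated, and then NOD fusion Treg (7.18), B6 ires Treg (6.47) and B6 fusion Treg (5.97), each below the one before by more than the half-width. Neurl3 ran from B6 ires Treg (8.58) to NOD ires Tconv (7.46), and the 5 groups between NOD ires Treg (8.40) and NOD ires Tconv were not separated from their neighbours among the 5.

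In Tconv, which were sorted as lacking GFP, none of the 6 differed between the alleles in limma's test. The contrast uses only Tconv arrays, none of those that chose the genes, although the variance estimate is shared with the Treg arrays. Fusion minus ires differences, as means of both backgrounds, were -0.05 (95% interval -0.24 to 0.15) for Rapgef5, -0.04 (-0.33 to 0.25) for Atp6v0d2 and 0.11 (-0.20 to 0.42) for Neb. They were -0.11 (-0.32 to 0.09) for Adh1, 0.08 (-0.12 to 0.27) for Neurl3 and 0.21 (0.03 to 0.39) for Gm7265. Every adjusted p was 0.9992. Gm7265 alone of the 6 had an unadjusted p under 0.05, of 0.0246 beside an adjusted p of 0.9992 in limma's fit. It was higher in fusion Tconv of both backgrounds, by 0.05 in B6 and 0.36 in NOD. Of all genes, 3 (0.0234%) were called in this comparison and 380 had an unadjusted p under 0.05. For Rapgef5, Atp6v0d2 and Gm7265 no Tconv array was above the filter line, and a difference there may not be detectable. Without the second NOD fusion Tconv array, which had the highest Tconv values of Foxp3 and Neb, the difference of Neb was -0.074. Whether the allele difference itself differed between Treg and Tconv was not tested, because the Treg arrays chose the genes.

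No gene of the 6 separated the 4 fusion Tconv arrays from the 4 ires Tconv arrays. Of all genes 1.09% did, so none among 6 is near the background. Within B6 Tconv the alleles did not overlap for Adh1 and Neurl3 (23% of all genes), and within NOD Tconv for Neurl3 and Gm7265 (29.4% of all genes). Neurl3 went in opposite directions in these pairs. B6 fusion Tconv arrays read 7.95 and 7.97 against 8.13 and 8.14 in B6 ires Tconv, and NOD fusion Tconv arrays read 7.83 and 7.75 against 7.65 and 7.28 in NOD ires Tconv. The difference was -0.17 ± 0.13 in B6 and 0.32 ± 0.13 in NOD. A test of the change between backgrounds, added after these values were seen, gave 0.50 ± 0.18 with an unadjusted p of 0.01332 and an adjusted p of 1 in limma's fit. None of the 6 was called in that test, and 0.0391% of all genes were.

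**Figure D2:**
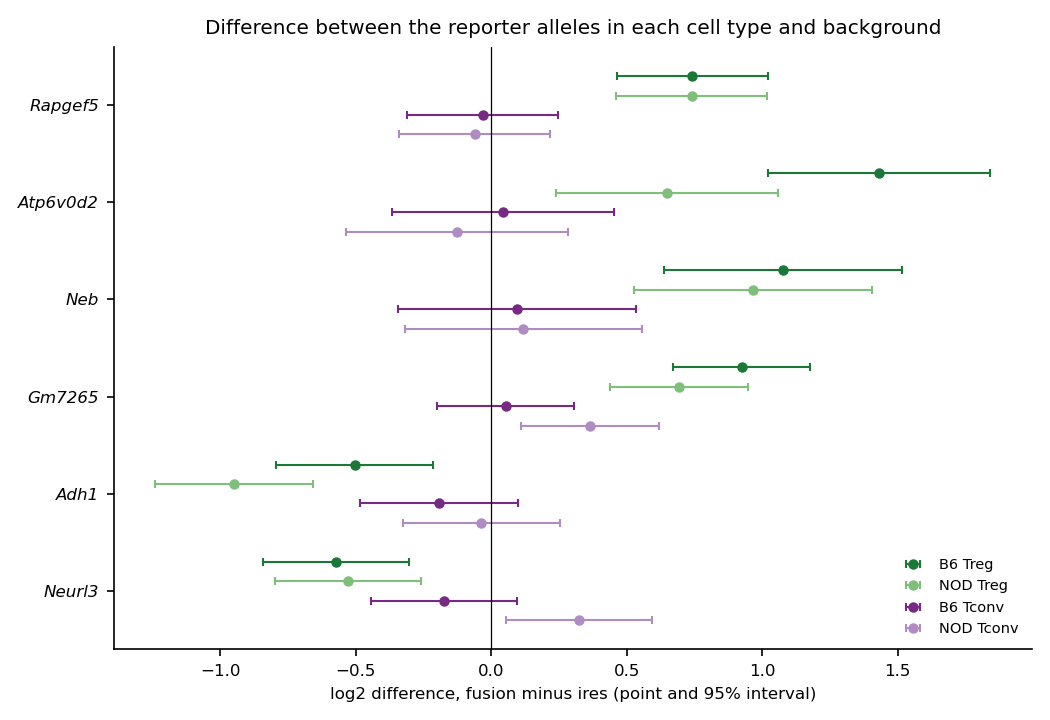
Fusion minus ires differences on the log2 scale (horizontal axis) for the 6 genes, in each cell type and background; points are differences of group means (2 arrays against 2) and bars are 95% intervals from the fit. In both Treg rows the intervals of all 6 genes lie to one side of 0, as their choice implies, and the Tconv points lie nearer 0, with Neurl3 at -0.17 in B6 and 0.32 in NOD.

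Between Treg and Tconv, over the 4 mouse lines, 5 of the 6 genes had higher and Adh1 lower values in Treg. Rapgef5, Atp6v0d2 and Gm7265 passed the filter through Treg arrays alone, so their cell type differences are given as values with no test. Rapgef5 was 1.70 ± 0.07 higher in Treg and Atp6v0d2 2.35 ± 0.10, each with 8 Treg arrays above all 8 Tconv arrays, and Gm7265 was 0.40 ± 0.06 higher. With all Tconv arrays below the filter line, the size of these differences is uncertain. Neb was higher in Treg by 1.99 ± 0.10 (3.97-fold, adjusted p = 2.9e-11 in limma's test), with no overlap of the arrays. Adh1 was lower by 1.99 ± 0.07 on the log2 scale, or 3.97-fold (adjusted p = 7.33e-14). Treg and Tconv arrays of Adh1 overlapped only across backgrounds, where NOD ires Treg reached 8.17 and B6 Tconv began at 8.07. Neurl3 had a small difference of 0.38 ± 0.06 (adjusted p = 0.000135).

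Calls between the cell types were common, at 28.6% of all genes, 16.7% higher and 11.9% lower in Treg, and the arrays did not overlap for 8.28%. The split of 2138 higher and 1526 lower became 1717 and 1714 with each array centred on its median, and 2108 and 2197 after quantile normalization. The values for single lines include the allele difference that chose the genes and are given without a test. For Gm7265 the Treg minus Tconv difference was 0.89 in B6 fusion and 0.51 in NOD fusion mice, and 0.02 and 0.18 in B6 and NOD ires mice, so nearly all of it lay in the fusion lines. For Neurl3 it was 0.05 and 0.09 in the fusion lines, and 0.44 and 0.94 in the ires lines of B6 and NOD, so the mean over lines does not stand for each line. The values in the fusion lines are smaller than their SE of 0.13, and those in the ires lines exceed it.

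The other 4 genes kept the direction of their difference between cell types in every line. Rapgef5 differed by 1.68 and 2.50 in B6 and NOD fusion mice and by 0.91 and 1.70 in B6 and NOD ires mice. Atp6v0d2 differed by 3.68 and 2.09 in the fusion lines and by 2.29 and 1.31 in the ires lines, and Neb by 2.68 and 2.21 against 1.70 and 1.36. Adh1 differed by -2.13 and -2.46 in the fusion lines and by -1.82 and -1.55 in the ires lines. In these 4 genes the fusion line of each background had the wider gap between Treg and Tconv, which restates the allele difference that chose them.

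In Treg, 3 of the 6 genes differed between the NOD and B6 backgrounds. As a mean of both alleles, Adh1 was higher in NOD than in B6 Treg by 1.44 ± 0.10 (2.71-fold, adjusted p = 1.02e-08 in limma's test), with all 4 NOD arrays above all 4 B6 arrays. Rapgef5 was higher by 0.99 ± 0.09 (1.99-fold, adjusted p = 7.75e-07), also without overlap. Atp6v0d2 was lower in NOD by 1.12 ± 0.14 on the log2 scale (2.17-fold, adjusted p = 1.83e-05 in limma's test). Its group means were 6.75 in NOD against 8.26 in B6 fusion Treg, and 6.10 in NOD against 6.83 in B6 ires Treg. The direction was thus the same with both alleles, but the size was not. The NOD fusion arrays of Atp6v0d2 overlapped its B6 ires arrays. Neb (-0.22, 95% interval -0.53 to 0.09, adjusted p = 0.303), Neurl3 (-0.15, -0.34 to 0.04, adjusted p = 0.236) and Gm7265 (-0.12, -0.30 to 0.06, adjusted p = 0.336) did not pass. Over all genes 21% were called, 11.2% higher and 9.82% lower in NOD Treg, and 20.7% did not overlap between the backgrounds. Whether strain differences in sequence under the probes contribute was not tested.

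In Tconv, Adh1 and Neurl3 differed between the backgrounds. Adh1 was higher in NOD by 1.47 ± 0.10 (2.77-fold, adjusted p = 9.78e-09 in limma's test), nearly the size of its difference in Treg. Neurl3 was lower in NOD by 0.42 ± 0.09 on the log2 scale (1.34-fold, adjusted p = 0.00518 in limma's test), with NOD ires Tconv lowest. Its group means were 7.46 in NOD against 8.13 in B6 ires Tconv, and 7.79 in NOD against 7.96 in B6 fusion Tconv. The mean over alleles thus does not stand for each allele of Neurl3. Both genes separated the 4 NOD from the 4 B6 Tconv arrays. Rapgef5 differed by 0.19 (-0.01 to 0.39, adjusted p = 0.154), Neb by 0.19 (-0.13 to 0.50, adjusted p = 0.376), Atp6v0d2 by 0.17 (-0.12 to 0.46, adjusted p = 0.398) and Gm7265 by -0.00 (-0.18 to 0.17, adjusted p = 0.972), none of which passed. Rapgef5 passed after quantile normalization (0.29, adjusted p = 0.0353 in limma's test). Atp6v0d2 differed by 0.36 without the second B6 ires Tconv array, where it had its highest Tconv value of 4.92. For Rapgef5, Atp6v0d2 and Gm7265 no Tconv array was above the filter line. A strain difference may not be detectable there, and these changes do not show one. Over all genes 15.9% were called, 9.39% higher and 6.49% lower in NOD Tconv, and 24.7% did not overlap. With each array centred on its median, the 6 genes' calls stayed as they were, while the split of all calls moved to 1932 higher and 374 lower in Tconv and to 1647 higher and 759 lower in Treg.

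For Rapgef5 and Atp6v0d2 the strain difference in Treg was set beside that in Tconv. The NOD minus B6 difference in Treg exceeded that in Tconv by 0.80 ± 0.13 for Rapgef5, and for Atp6v0d2 the same contrast was -1.29 ± 0.19. Both genes lay below the filter line on all 8 Tconv arrays, where a strain difference may not be detectable, so these values do not show that the strain difference is smaller in Tconv and are given with no p. For Adh1 the same contrast was -0.03 (-0.32 to 0.26, adjusted p = 0.978 in limma's test), and its strain difference was called in both cell types. Neb (-0.40, adjusted p = 0.558) and Neurl3 (0.27, adjusted p = 0.509) did not pass. For Gm7265 the contrast was -0.11, given with no p because all 8 of its Tconv arrays lay below the filter line too. Over all genes 0.82% were called in this contrast, 0.25% higher and 0.57% lower. After quantile normalization the split of all calls in this contrast was 61 higher and 85 lower, against 32 and 73.

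**Figure D3:**
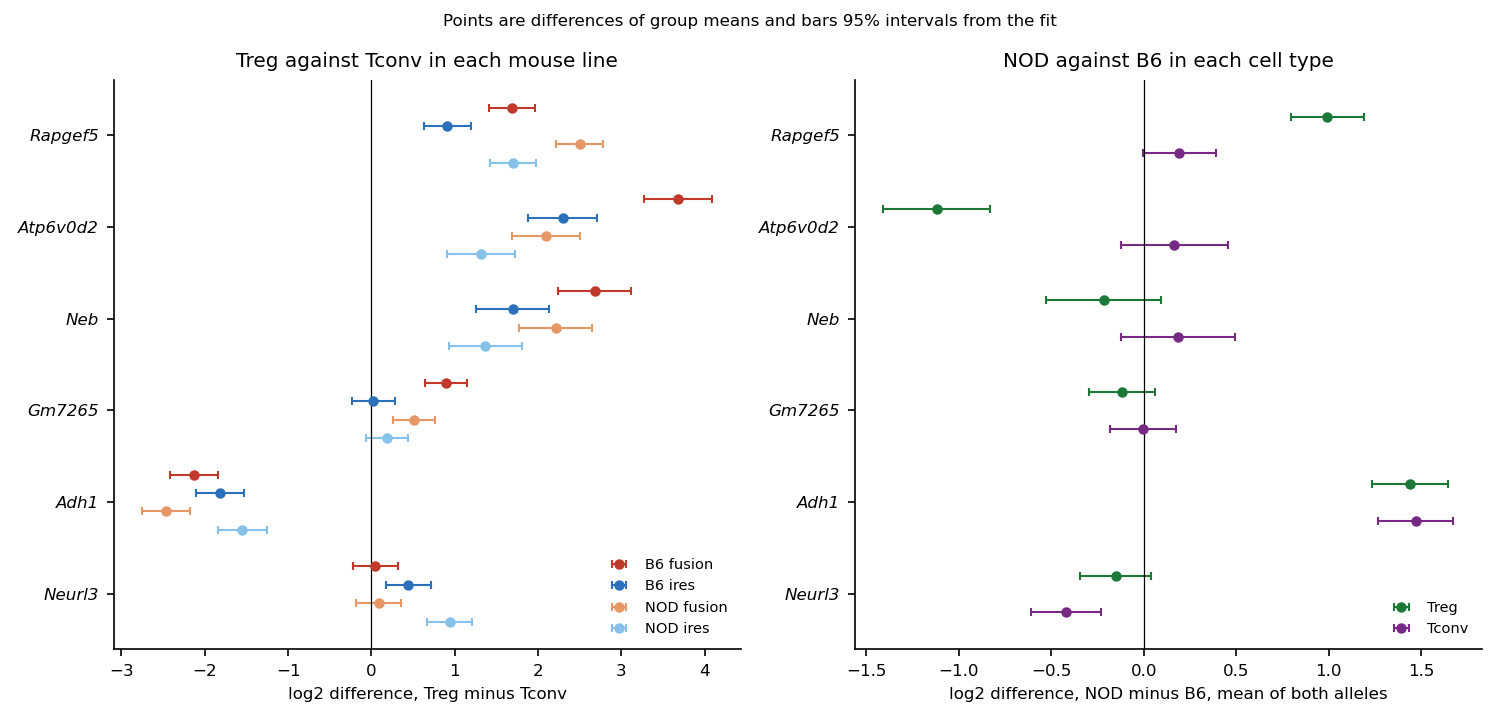
Log2 differences with 95% intervals for the 6 genes, on the left Treg minus Tconv in each of the 4 mouse lines and on the right NOD minus B6 in Treg and in Tconv as means of both alleles. Neurl3 lies near 0 in both fusion lines and at 0.44 and 0.94 in the ires lines, Gm7265 the reverse, and on the right Adh1 lies near 1.4 in both cell types while Rapgef5 and Atp6v0d2 depart from 0 in Treg on opposite sides.

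The probe set named Gm7265 was set beside that of Nedd4, the ubiquitin ligase gene that carries Gm7265 as a synonym in RefSeq. Nedd4 read 8.29 and 7.90 in B6 fusion Treg against 6.80 and 6.65 in B6 ires Treg. It read 7.38 and 7.47 in NOD fusion Treg against 6.67 and 6.89 in NOD ires Treg. Both probe sets were thus higher in fusion Treg on both backgrounds with no overlap of the 4 and 4 arrays. Such a lack of overlap held for 2.15% of all genes, and Gm7265 was chosen for its allele difference in Treg. In Tconv neither differed at the threshold, and every Gm7265 array was below the filter line. All 4 fusion Tconv arrays of Nedd4 (6.32 to 6.40) lay below all 4 ires Tconv arrays (6.53 to 6.99), a difference of -0.31 ± 0.11 that did not pass (adjusted p = 0.9992 in limma's test), and Gm7265 differed by 0.21 ± 0.09 (adjusted p = 0.9992). Over all genes, 1.09% had no overlap between the alleles in Tconv. Whether the probe sets differ from each other in Tconv was not tested. Across the 16 arrays the correlation between the probe sets was r = 0.849, which is a description, since the arrays share their groups. Nedd4 was the gene most like Gm7265 among all tested genes with a regular symbol. Whether the Gm7265 probe set reads Nedd4 transcripts cannot be told from these values.

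**Figure D4:**
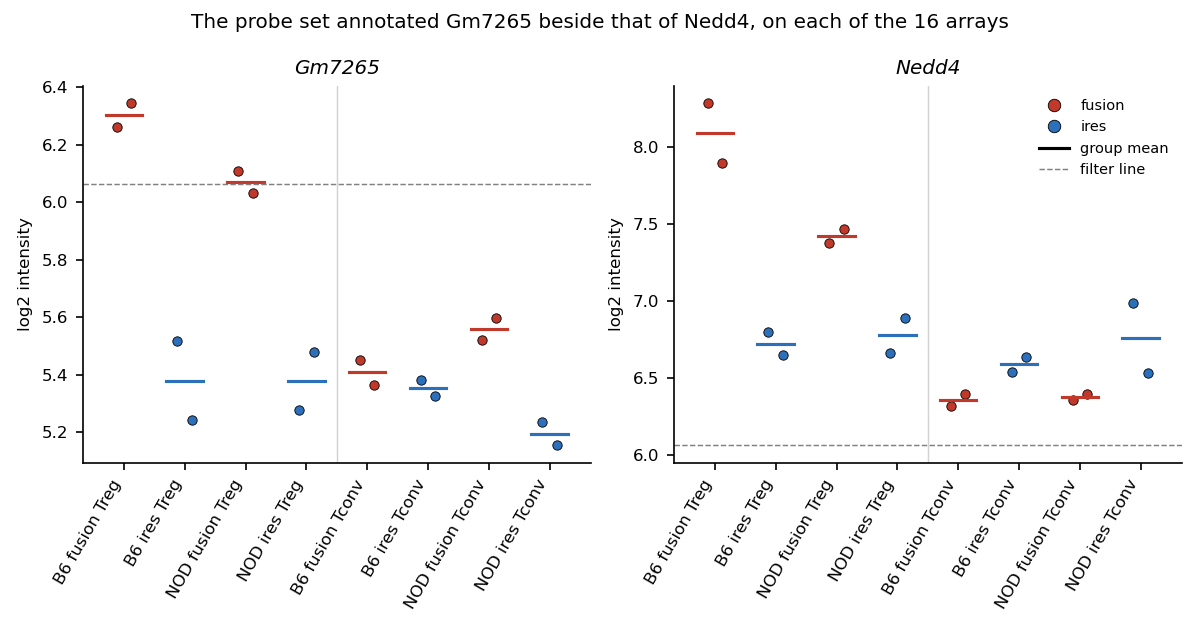
Log2 intensity (vertical axes, different ranges) of the probe sets annotated Gm7265 and Nedd4 on the 16 arrays in 8 groups; points are arrays, bars group means and the dashed line the filter at 6.06. Both are highest in fusion Treg, and in Tconv the Nedd4 fusion arrays (6.32 to 6.40) lie below its ires arrays (6.53 to 6.99).

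The genes whose pattern over the 16 arrays was most like each of the 6 were found by Pearson's r, as a description of arrays that share cell type and strain. Rapgef5 was followed by Melk (r = 0.964), Kif13b (0.962) and Sh3bgrl2 (0.954). Atp6v0d2 was followed by Gbp2b (0.980), Batf (0.975) and Tigit (0.974), and Neb by Il10ra (0.976), AI504432 (0.970) and again Tigit (0.969). Batf encodes an AP-1 family transcription factor and Tigit an inhibitory receptor of T cells, and Il10ra a chain of the interleukin-10 receptor. Adh1 was followed by Amigo2 (0.989), Cmah (0.966) and Csnk1e (0.965). Neurl3 had weaker likeness, to Adamtsl4 (0.889), Id3 (0.868) and Zswim7 (0.828), and so did Gm7265 after Nedd4, to Slc43a1 (0.838) and Brca1 (0.831).

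The other genes of the 6 genes' families and pathways were described from lists that leave the 6 out, and with 0.609% of all genes called, lists of this size have few or no calls at the background rate. Rap signalling genes other than Rapgef5 (22 tested) had 0 called between the alleles in Treg and a median difference of 0.02, with the widest values at -0.31 and 0.22, and up to 1 called, lower, under an alternative. The other vacuolar proton pump subunits (19 tested) had 0 called and a median of 0.08, between -0.23 and 0.22, and lysosomal and MiT/TFE genes (25 tested) had 0 called, a median of -0.02 and values between -0.28 and 0.27. Genes of retinoid and alcohol metabolism (20 tested) had 0 called and a median of -0.01, and Neuralized and Notch genes (26 tested) had 0 called and a median of -0.03. Of 22 tested sarcomere genes, 1 was called. Actn1, an actin-crosslinking alpha-actinin, was lower in fusion Treg by 0.60 ± 0.13 on the log2 scale (adjusted p = 0.0443 in limma's test), opposite to Neb. That call was lost under 12 of 26 alternatives, with adjusted p-values from 0.00116 to 0.183. In Tconv 0 genes of any list were called between the alleles.

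Of the 59 tested genes next to the 6 on the chromosome, up to 5 on each side, 0 were called between the alleles in Treg and 0 in Tconv. Their differences in Treg ran from -0.26 to 0.48, the highest beside Rapgef5. At the 0.609% called over all genes, 0 of 59 is near the background. Nedd4, at the position used for Gm7265, was not counted among the 59. Its own probe set was higher in fusion Treg by 1.01 ± 0.11, outside the range of the neighbours.

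Between Treg and Tconv the same lists had calls in both directions, against 28.6% of all genes. In the Rap list 4 genes were higher and 6 lower in Treg, led by Rasgrp2, another Rap exchange factor, which was lower by 1.14 ± 0.07 on the log2 scale while Rapgef5 was higher. In the proton pump list 1 was higher and 4 lower. The 1 higher was Atp6v0a1, a subunit of the same membrane sector as Atp6v0d2, at 1.85 ± 0.08, while Atp6ap2 (-0.34) and Atp6v0a2 (-0.32) were lower. Of the lysosomal genes 8 were higher and 1 lower, with Rragd, a GTPase that signals amino acid supply at the lysosome, at 1.24 ± 0.09, the cathepsin Ctsz at 0.72 ± 0.06, Ctsb at 0.55 ± 0.07 and the transcription factor Tfe3 at 0.42 ± 0.08.

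Sarcomere genes had 4 higher and 4 lower. Actn1 was lower by 1.52 ± 0.09 on the log2 scale, and Tpm4 (0.40), a tropomyosin, and Ttn (0.37), titin, were higher, in the direction of Neb. Tmod3 (-0.34), Nebl (-0.31), of the nebulin family, and Cfl2 (-0.18) were lower, opposite to Neb. Of the retinoid list 6 were higher and 3 lower. Rarg, a retinoic acid receptor, was higher by 1.18 ± 0.08, Stra6, a retinol transporter, by 1.13 ± 0.09, and Dhrs3, which reduces retinal to retinol, by 0.81 ± 0.06. The 3 lower genes were Rdh14 (-0.28), Adh5 (-0.25), another alcohol dehydrogenase gene, and Rxrb (-0.18), and Adh1 was lower in Treg too. The Neuralized and Notch list had 4 higher and 4 lower, with Notch2 higher by 0.61 ± 0.07 and Maml2, a Notch coactivator, lower by 1.01 ± 0.07 on the log2 scale. The medians of the lists lay between -0.05 and 0.10, and that of all genes was -0.01. These counts moved by over 1.5 times in some lists under the alternatives, with the proton pump list at 1 to 3 higher and 2 to 5 lower, the Rap list at 3 to 5 and 4 to 7, the lysosomal list at 8 to 10 and 0 to 2 and the sarcomere list at 2 to 5 and 3 to 4. The retinoid list ran at 5 to 7 and 2 to 5, and the Neuralized and Notch list at 3 to 5 and 4 to 6.

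**Figure D5:**
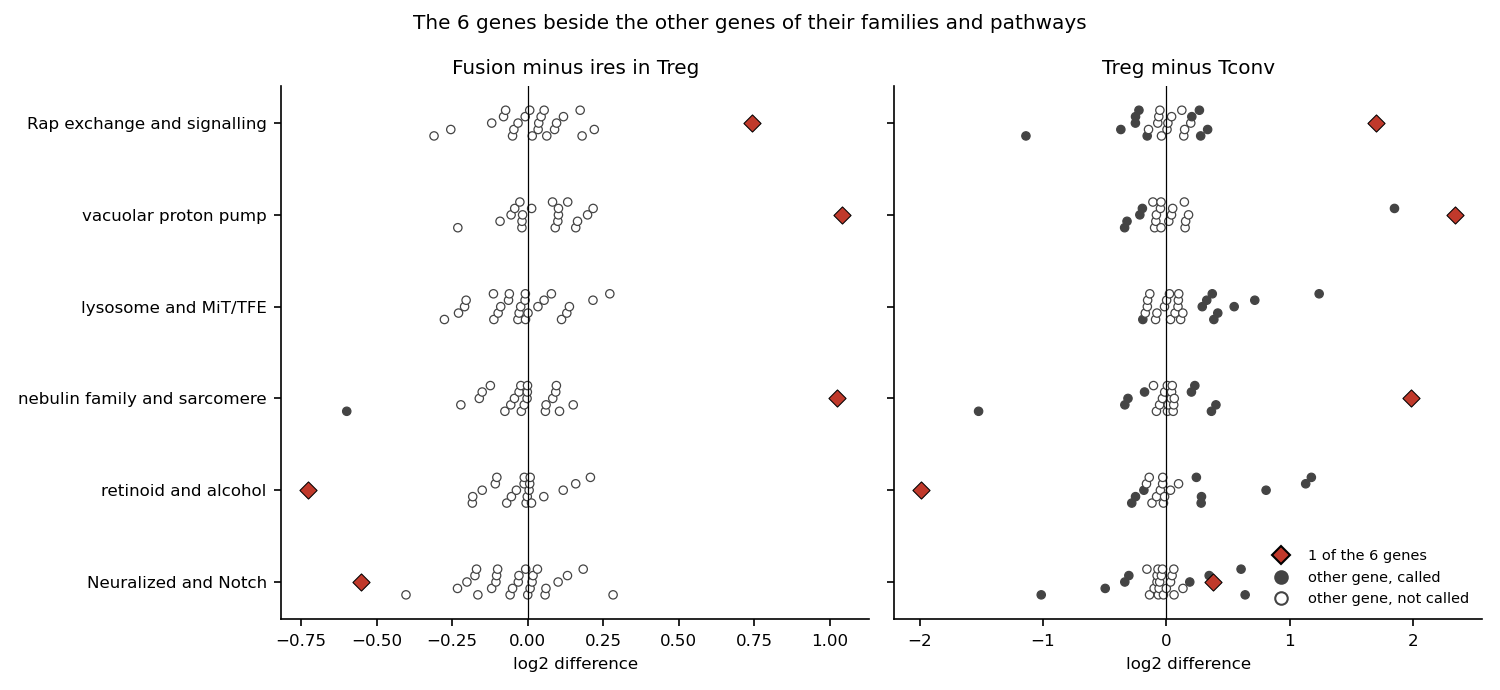
Log2 differences of the genes of 6 lists (rows), on the left fusion minus ires in Treg and on the right Treg minus Tconv; filled circles are called genes, open circles genes not called, and red diamonds the gene of the 6 that belongs to the list. On the left the diamonds of Rapgef5, Atp6v0d2, Neb, Adh1 and Neurl3 lie outside the range of their lists, as follows from how these genes were chosen, and Actn1 at -0.60 is the only filled circle; on the right called genes lie on both sides of 0 in every list.

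Because Atp6v0d2 is abundant in osteoclasts and macrophages, markers of these cells were examined beside it. Of 14 such genes, 7 were above the filter line on no array, and 0 of the 6 tested were called between the alleles in Treg. Their summed linear intensity was 1497 to 1694 on fusion Treg arrays, 1628 to 1895 on ires Treg arrays and 1831 to 2280 on Tconv arrays. Fusion and ires Treg arrays overlapped in this sum within both backgrounds, with B6 at 1497 to 1678 against 1628 to 1635 and NOD at 1688 to 1694 against 1680 to 1895. The part of such cells in the Atp6v0d2 values was not tested. Markers of red cells and platelets (3 tested), of B and plasma cells (1), of dendritic cells (4) and of cytotoxic, NK or gamma-delta T lymphocytes (6) had 0 called between the alleles in Treg as well. With 0.609% of all genes called, marker lists this short have few or no calls at the background rate. In sorted cells measured in bulk, more cells of a kind and more RNA per cell cannot be told apart for any of the 6.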

How the data were processed

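Per the labels' protocols, RNA was extracted with TriZol, labelled with biotin and hybridized to Affymetrix arrays. Affymetrix Power Tools and RMA are the tools named, per the submitters' processing notes, and the authors deposited linear-scale intensities of 25108 probe sets. The sources used here give no tool versions and no genome build. From the deposited intensities log2 values were computed without a pseudocount or further normalization. The 21157 probe sets with exactly 1 symbol covered 19531 genes, and where a gene had several, the one with the highest mean was kept. Genes above the 40th percentile (log2 6.06) on at least 2 arrays were tested, 12798 in all. All 6 genes passed.

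The 16 arrays entered 1 linear model with a term for each of the 8 groups (limma 3.58.1, R 4.3.3). Its empirical Bayes step combined 8 residual with 9.80 prior degrees of freedom. Tests were two-sided, p-values were adjusted by Benjamini-Hochberg over all 12798 genes, and an adjusted p under 0.05 is a call. The fit was tested on simulated data. Errors written with ± are standard errors of the fit. Tables and plots used Python 3.11.15 with pandas 2.3.3, numpy 2.4.6 and matplotlib 3.10.9. The small number of arrays limits the precision.

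The 6 genes, the lists and the tests were chosen with earlier results of these data known. Besides the 6, the text names up to 4 called genes per list and comparison with the largest difference, and the 3 genes most like each of the 6, without provisional symbols (Gm numbers, Rik, LOC) or small RNA genes. In the sarcomere and retinoid lists all genes called lower in Treg than in Tconv are named too. Alternatives were no filter and a filter at the 60th percentile, median centring or quantile normalization of arrays, fitting each probe set alone or averaging those of a gene, array weights, trend and robust variances, fitting the compared groups alone, a replicate block, and dropping single arrays. Promoter windows and gene positions are from RefSeq, GRCm38.p6, and 12790 of the tested genes were matched to it. No windows were used for Atp6v0d2, Neb or Gm7265.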

Additional observations from a re-analysis of the deposited data

Results flagged for a closer look

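3 results were set apart because an effect read differently in 2 groups. The NOD minus B6 difference of Rapgef5 was 0.80 ± 0.13 higher on the log2 scale in Treg than in Tconv. It was 0.99 in Treg and 0.19 in Tconv, and NOD was higher in both alleles in Treg. The NOD minus B6 difference of Atp6v0d2 went the other way, with Treg minus Tconv at -1.29 ± 0.19, from -1.12 in Treg and 0.17 in Tconv. No Tconv array was above the filter line for either gene, so a strain difference in Tconv may not be detectable, and these values do not show that it is smaller there. In Tconv, both NOD fusion arrays of Neurl3 lay above both NOD ires arrays and both B6 fusion arrays lay below both B6 ires arrays. The difference between backgrounds was 0.50 ± 0.18, and limma's test of it, added after the values were seen, gave an adjusted p of 1.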

How the results depend on the processing

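The results of the 6 genes were recomputed under 26 alternatives, which gave 1254 values. Of these, 1226 kept their direction and their side of the threshold or moved by less than the spread between replicates. No call of the 6 genes was lost. The 2 that were gained were both NOD against B6 in Tconv, for Rapgef5 and Atp6v0d2, whose Tconv arrays all lay below the filter line. A further 8 untested values in 1 background moved by more than the spread, and 18 uncalled values were counted as reversed. The sign changed in 26 values in all, none of them called. The sign of Gm7265 in NOD against B6 in Tconv turned to 0.0767 with arrays centred on their medians and to 0.1017 after quantile normalization, and that of Adh1 in the strain difference between cell types turned to 0.0297 after quantile normalization. Leaving out 1 array, fusion minus ires in Tconv ran from -0.15 to 0.0571 for Rapgef5, from -0.23 to 0.15 for Atp6v0d2, from -0.0738 to 0.29 for Neb and from -0.0174 to 0.17 for Neurl3. NOD minus B6 in Tconv ran from -0.0267 to 0.36 for Atp6v0d2 and from -0.0267 to 0.0171 for Gm7265, and the strain difference between cell types from -0.13 to 0.0655 for Adh1. The cause of these changes was not tested. Among genes of the lists, the call of Actn1 between alleles in Treg was lost under 12 of 26 alternatives and that of Atp6v1h between cell types under 7 of 25.

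The number of the 6 genes called was 0 for alleles in Tconv and 3 and 2 for strain in Treg and Tconv, against 0.0234%, 21% and 15.9% of all genes. It moved by at most 1 under every alternative. No count is given between cell types or for the strain difference between cell types, because some of the 6 passed the filter through Treg arrays alone. The stricter filter left Gm7265 out. Counts over all genes moved more. For alleles in Tconv 3 genes were called, 6 with trend and robust variances and 2 to 12 without 1 array (12 without the second NOD ires Tconv array). For alleles in Treg, 78 became 30 to 91 without 1 array, lowest without the first NOD ires Treg array. For NOD against B6 in Treg, 2690 became 1597 to 3063, lowest without the second B6 ires Treg array. In Tconv, 2033 became 841 to 2365, lowest without the first NOD ires Tconv array. For the strain difference between cell types 105 became 69 to 141, lowest without the first B6 fusion Tconv array. For the allele difference between backgrounds in Tconv 5 became 2 to 5 without 1 array, and 2 in a fit of only the 4 Tconv groups.

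Arrays share replicate numbers across groups, but deviations of same-numbered arrays from their group means correlated between -0.37 and 0.47 (median 0.15) over 28 pairs of groups, 7 of them below 0, and no label says that a number marks a shared mouse or day. The numbers were therefore not taken to pair the arrays. With the replicate number as a block the counts over the 6 genes were the same (0 for alleles in Tconv, and 3 and 2 for strain in Treg and Tconv). Over all genes, 4, 3981, 3204, 2655, 140 and 95 were called for alleles in Tconv, cell types, strain in Treg, strain in Tconv, the strain difference and alleles in Treg.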
